A study of Mus musculus with 4 samples.

Results

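The subject of this account is a set of 36 genes of glycolysis and of the transcriptional response to low oxygen, read in lung tumours of mice with and without CD109. The genes were chosen by name for their function, and earlier results of these data were known when they were chosen. They comprised 15 glycolytic enzymes, 19 other targets of the hypoxia-inducible factors (HIF) and the 2 oxygen-regulated HIF subunits Hif1a and Epas1. A gene was tested if both samples of either genotype lit its probe well above background. Of the 36 genes 35 met this and were tested among 16443 genes, and Car12 did not. All 35 were in fact well above background on all 4 arrays, so none was tested only through the genotype in which it was brighter.

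The samples were lung tumours of C57BL/6J KP mice, a Cre-activated model of lung adenocarcinoma. The labels do not spell out the alleles of the model, the kind of Cd109 deletion, or the age of the mice. All mice, controls included, had received adenoviral Cre recombinase through the trachea 88 to 92 days before RNA was taken, and the labels differ between the groups in CD109 genotype and in sex. The 2 CD109+/+ samples came from females. Of the 2 CD109-/- samples, replicate 1 came from a male and replicate 2 from a female. Each was hybridised to 1 single-colour Agilent array.

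Glycolysis splits glucose into pyruvate, and lactate dehydrogenase can then turn pyruvate into lactate so that the pathway runs on without oxygen. When oxygen is plentiful, prolyl hydroxylases of the EGLN family mark the HIF alpha subunits for destruction through the VHL protein. When oxygen is scarce, the subunits persist, pair with ARNT and switch on genes for glucose uptake, glycolysis, acid export, mitophagy and collagen modification. Solid tumours often contain poorly perfused regions in which these genes are active, and oncogenic signalling can raise many of the glycolytic genes without hypoxia.

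Levels below are log2 of the background-corrected spot signal minus the 75th percentile of the same array, so that 0 is the level of a fairly bright spot. Levels of different genes come from different probes and are not compared with each other. Differences are CD109-/- minus CD109+/+ on the same log2 scale, with limma's standard error (SE, n = 2 per genotype). The CD109-/- replicates, of different sex, were different mice. For the CD109+/+ replicates the labels leave this unsaid, so the spread between those samples may be technical. An exact two-sided permutation test of 2 against 2 cannot give a p below 0.333. The 75th percentile of the signal was between 557 and 688 on the 4 arrays, the share of spots well above background was 64.3% to 67.0%, and saturation was reached by 0 spots. The targeted gene had log2 levels of -3.70 and -4.66 on the CD109+/+ arrays and was not well above background on either CD109-/- array (measured values -7.98 and -7.87), as the genotype labels state. The tissue label was also borne out, with the alveolar type 2 cell gene Sftpc at log2 levels of 9.11, 8.96, 8.92 and 8.79. Wherever 4 levels are given, the first pair is CD109+/+ (replicate 1, then 2) and the second pair CD109-/- (replicate 1, then 2). Among the 35 tested members 16 had more than 1 tested probe, and in 3 of them (Pkm, Pfkfb3 and P4ha1) the probes differed in the sign of the genotype difference. Values are from bulk tissue, in which fewer cells of a type and less RNA per cell cannot be told apart.

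The genotype comparison asked whether the glycolytic and hypoxia genes differed with CD109 deficiency, and none passed the threshold. Over all genes limma called 0 of 16443 (0%) at a Benjamini-Hochberg adjusted p under 0.05, and 1219 (7.41%) had an unadjusted p under 0.05. Among the 35 members 1 had an unadjusted p under 0.05, Kdm3a, and it was lower, where 2.41% of all genes were lower at that level. The members leaned to lower values in CD109-/- tumours, 26 lower and 9 higher, with a median difference of -0.23. Over all genes the median was 0.00 and 50.3% were higher. The lean rested on single arrays: without CD109+/+ replicate 1 or without CD109-/- replicate 2 the median over the enzymes was 0.05 or 0.16.

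Among the glycolytic enzymes 11 of 15 had lower values in CD109-/- tumours and the median difference was -0.25. Hexokinases commit glucose to the pathway by phosphorylating it. Hk2, the inducible hexokinase of many tumours, had log2 levels of 2.07, 1.53, 1.29 and 0.88. Both CD109-/- arrays were below both CD109+/+ arrays, the difference was -0.72 ± 0.30, and limma's p was 0.0698 (adjusted p = 0.70). Hk1, the constitutive hexokinase, had levels of 3.28, 2.57, 3.51 and 2.56. Its genotypes overlapped, with a difference of 0.11 ± 0.45.

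The next steps rearrange the sugar, add a further phosphate and split it. Gpi1, which interconverts glucose and fructose phosphates, had levels of 6.42, 6.15, 5.88 and 5.92 with a difference of -0.38 ± 0.22, and its genotypes did not overlap. The 3 isoforms of phosphofructokinase, which catalyses the committed step, differed by -0.54 ± 0.42 (Pfkl), 0.14 ± 0.25 (Pfkm) and -0.44 ± 0.50 (Pfkp), all with overlapping genotypes. Pfkl, the liver-type isoform, had levels of 1.88, 1.13, 1.35 and 0.56, and the muscle-type Pfkm of 1.39, 0.96, 1.35 and 1.28. Pfkp, the platelet-type isoform, had levels of 1.68, 1.00, 1.5 and 0.30, so that the lowest value was that of CD109-/- replicate 2. The aldolase gene Aldoa had levels of 7.59, 7.21, 7.20 and 6.82, a difference of -0.39 ± 0.27, and genotypes that met without overlapping. Aldoc, the brain-type aldolase, had the highest difference of all members, 0.50 ± 0.34, through CD109-/- replicate 1 (2.44, 2.18, 3.20 and 2.42).

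The triose and energy-yielding steps follow. Tpi1, which balances the triose phosphates, had levels of 5.86, 5.05, 5.42 and 4.67 and a difference of -0.41 ± 0.42. Gapdh, which oxidises glyceraldehyde phosphate and is often used as a reference gene, had levels of 7.74, 6.88, 7.18 and 6.68 and a difference of -0.38 ± 0.39. Its 6 tested probes gave differences between -0.43 and -0.23, and processed copies of this gene elsewhere in the genome may add to its signal. Pgk1 makes the first ATP of the pathway, and its levels of 6.75, 5.93, 6.82 and 5.88 left a difference of 0.01 ± 0.46. Pgam1, the phosphoglycerate mutase, had levels of 5.08, 3.89, 4.92 and 4.0 and a difference of -0.02 ± 0.54. The sign of both turned with the scaling, to -0.02 for Pgk1 after normexp correction and to -0.01 in the authors' processed values, and to 0.02 for Pgam1 with scaling on the median. The enolase gene Eno1 had levels of 6.30, 5.43, 6.04 and 5.28 and a difference of -0.20 ± 0.43. Pkm, the pyruvate kinase that forms pyruvate and the last ATP of the pathway, had levels of 5.67, 4.76, 5.61 and 4.56 and a difference of -0.13 ± 0.50. Ldha, which makes lactate, had levels of 7.89, 7.36, 7.76 and 7.0 and a difference of -0.25 ± 0.37. In each of Pgk1, Pgam1, Eno1, Pkm and Ldha both genotypes held a high and a low array, and the genotypes overlapped.

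Genes outside the enzyme chain were read apart, and 15 of the 18 tested had lower values in CD109-/- tumours, with a median of -0.31. Slc2a1 (GLUT1), the glucose transporter most often induced by HIF, had levels of 3.47, 2.47, 3.0 and 1.87 and a difference of -0.54 ± 0.54. Slc2a3 (GLUT3) had levels of 2.49, 1.58, 1.20 and 2.51 and a difference of -0.18 ± 0.57. Slc16a3 (MCT4), which exports lactate, had levels of 2.94, 1.25, 2.53 and 0.83 and a difference of -0.42 ± 0.82. For all 3 transporters the spread inside a genotype was larger than the difference between genotypes.

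Regulators that direct pyruvate and fructose phosphates had differences of both signs. Pdk1 holds pyruvate back from mitochondria by inhibiting pyruvate dehydrogenase. Its levels were 2.72, 1.81, 1.72 and 1.59, the difference was -0.61 ± 0.37, and the genotypes did not overlap because CD109+/+ replicate 2 lay just above both CD109-/- arrays. Pfkfb3 and Pfkfb4 set the level of an activator of phosphofructokinase, and they differed by 0.28 ± 0.38 and -0.05 ± 0.27. Pfkfb3 had levels of 2.16, 1.20, 1.95 and 1.97, with CD109+/+ replicate 2 apart from the other arrays, and its second probe differed by -0.11. Pfkfb4 had levels of 2.54, 2.63, 2.28 and 2.79, and both its extremes were CD109-/- arrays.

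Bnip3 and Bnip3l, which mark mitochondria for removal, had differences of -0.64 ± 0.37 and -0.39 ± 0.22. Bnip3 levels were 4.92, 4.18, 4.20 and 3.63, and the genotypes overlapped narrowly. Those of Bnip3l were 4.42, 4.24, 3.87 and 4.01 and did not overlap. The endoplasmic reticulum oxidase Ero1l had levels of 3.30, 2.77, 3.33 and 2.28 and a difference of -0.23 ± 0.44. The mTOR inhibitor Ddit4 (REDD1) had levels of 4.64, 3.96, 4.83 and 3.55 and a difference of -0.11 ± 0.52. Both were highest on CD109-/- replicate 1 and lowest on CD109-/- replicate 2. Ndrg1, a stress-induced gene of epithelia, had levels of 5.53, 3.82, 4.29 and 3.46 with a difference of -0.80 ± 0.66. The array that stood out for Ndrg1 was CD109+/+ replicate 1.

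The lowest p among all members was that of Kdm3a, a histone H3 lysine demethylase induced by HIF. Its levels were 3.47, 2.97, 2.32 and 2.59. Both CD109-/- arrays were lower, with a difference of -0.76 ± 0.28, limma's unadjusted p = 0.0459 and adjusted p = 0.667 over all genes. Leaving out CD109+/+ replicate 1 gave -0.51 and leaving out CD109-/- replicate 1, so that only females were compared, gave -0.62 (limma's unadjusted p = 0.223 and 0.145). P4ha1 and P4ha2 encode catalytic subunits of the prolyl hydroxylase of collagen. They differed by 0.29 ± 0.22 and 0.15 ± 0.28, and P4ha1, at -0.04, 0.16, 0.28 and 0.43, was the single member whose CD109-/- arrays were both higher. Its dimmer probe differed by -0.09. P4ha2 had levels of 3.13, 3.05, 2.95 and 3.53, and its genotypes overlapped.

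The oxygen sensors and the HIF subunits themselves were read last. Egln1 (PHD2), the main hydroxylase of HIF-1 alpha, had levels of 3.57, 3.74, 3.68 and 3.25 and differed by -0.19 ± 0.26. Egln3 (PHD3), which is itself a HIF target and feeds back on HIF, had levels of 0.66, -1.29, -0.19 and -3.50. Its difference of -1.53 ± 1.29 was the lowest of all members, and the genotypes overlapped. Hif1a had levels of 3.38, 2.93, 3.45 and 3.08 and differed by 0.11 ± 0.28. Epas1 (HIF-2 alpha), which lung endothelium and epithelium express strongly, had levels of 5.12, 5.53, 5.38 and 5.88 and differed by 0.30 ± 0.30. HIF subunits are controlled mainly at the protein level, which arrays do not measure.

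**Figure D1:**
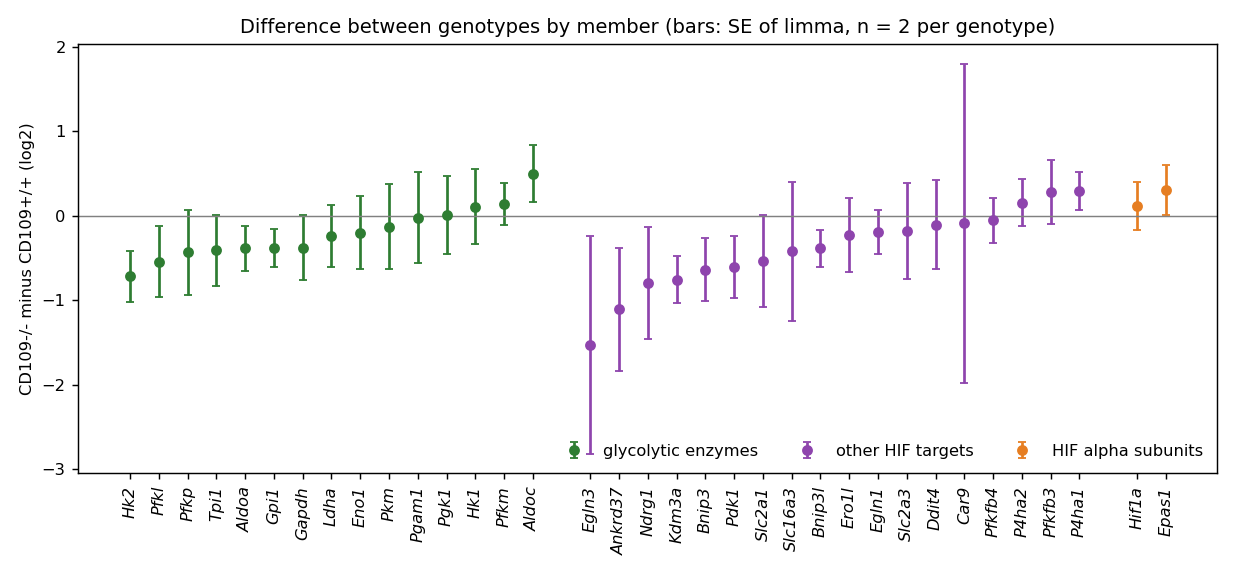
Difference between genotypes (CD109-/- minus CD109+/+, log2) for the 35 tested members, ordered within glycolytic enzymes, other HIF targets and HIF alpha subunits; points are the fitted difference and bars limma's standard error with n = 2 per genotype. Most points lie below 0, from -1.53 for Egln3 to 0.50 for Aldoc, and many bars span both signs, the widest being that of Car9.

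In 6 of 35 members the difference between genotypes exceeded the gap between the 2 arrays of each genotype (17.1%), namely Hk2, Gpi1, Aldoa, Bnip3l, P4ha1 and Kdm3a. Over all genes this share was 26.1%. The genotypes did not overlap in 7 members, 6 lower and 1 higher, against 18.3% of all genes lower and 20.3% higher (38.6% either way). None of these shares of members was larger than that of the background, the share of lower members included.

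The larger pattern in these genes lay inside each genotype. CD109+/+ replicate 1 was above CD109+/+ replicate 2 in 31 of 35 members, with a median gap of 0.71 on the log2 scale, where 54.2% of all genes were higher and the median gap was 0.04. CD109-/- replicate 1 was above CD109-/- replicate 2 in 26 of 35 members, with a median gap of 0.75, where 47.5% of all genes were higher and the median gap was -0.03. Both gaps were positive in 25 members (71.4%) and in 31.9% of all genes. Regardless of sign, the median difference between genotypes was 0.30 in the members and 0.25 over all genes. On the same footing the median gaps were 0.71 and 0.76 in the members and 0.27 and 0.34 over all genes. A gap sets single arrays against each other and a genotype difference sets means of 2 arrays, so gaps tend to be larger. In the authors' processed values the median CD109+/+ gap was 0.43 for the enzymes and 0.54 for the other HIF targets, against 0.71 and 0.82 here, but the median over all genes was -0.24 there, against 0.04 here. The lower gaps thus came with a shift of all genes. The labels do not tie the replicate numbers of the 2 genotypes to each other, so the shared numbers are names only. The CD109-/- gap sets a male against a female, so sex and sample cannot be told apart in it, whereas both CD109+/+ samples came from females.

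The glycolytic enzymes showed the pattern most evenly. All 15 were higher on CD109+/+ replicate 1 than on CD109+/+ replicate 2, and 14 of 15 were higher on CD109-/- replicate 1 than on CD109-/- replicate 2, Gpi1 being the exception with a gap of -0.04. The median gaps were 0.71 and 0.76. Pgam1 had gaps of 1.19 and 0.91, Pkm of 0.91 and 1.05, and Pgk1 of 0.82 and 0.95. On CD109+/+ replicate 1 stood the highest value of 12 enzymes, and on CD109-/- replicate 2 the lowest value of 11, where over all genes these arrays held 27.4% of the highest and 24.6% of the lowest values. The log2 of the summed signal of the 15 enzymes, a sum of linear scaled signals in which the brightest probes weigh most, was 10.09, 9.45, 9.81 and 9.19. The level thus ran from CD109+/+ replicate 1 through CD109-/- replicate 1 and CD109+/+ replicate 2 to CD109-/- replicate 2, with the genotypes alternating.

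**Figure D2:**
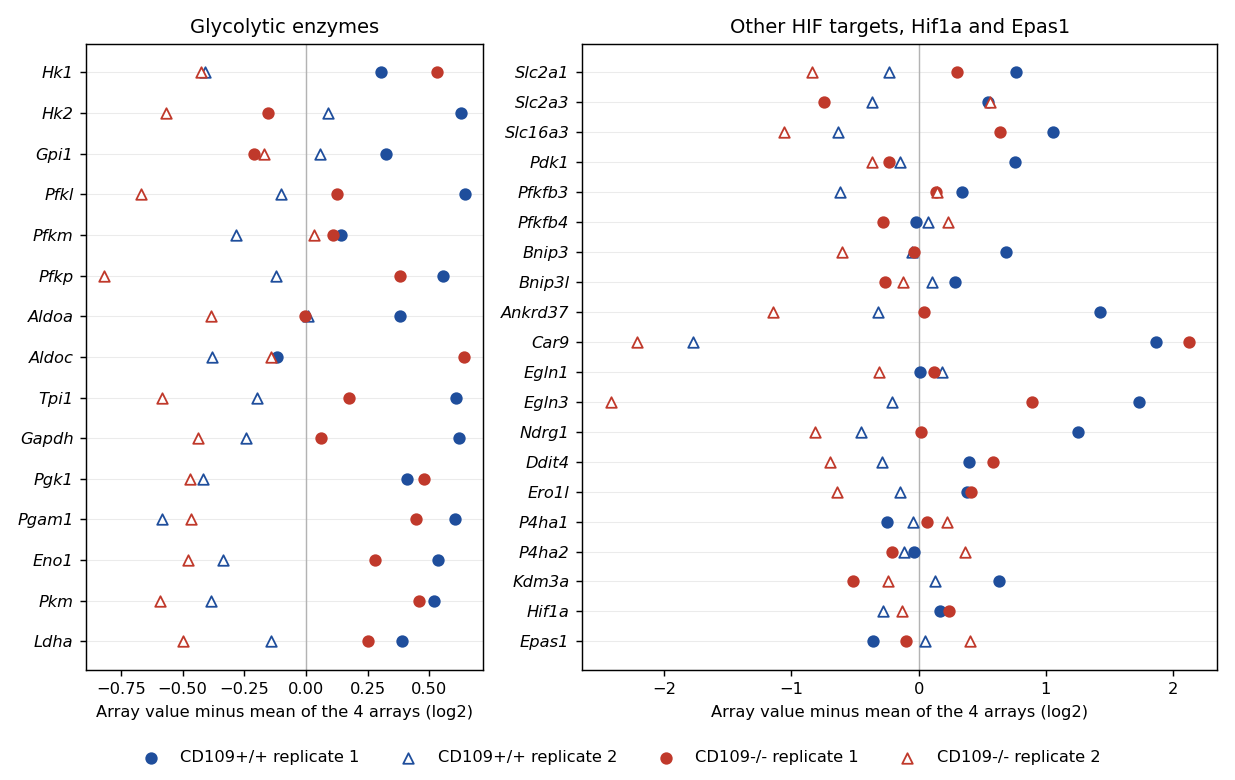
Value of each array minus the mean of the 4 arrays (log2) for the 15 glycolytic enzymes on the left and for 18 other HIF targets with Hif1a and Epas1 on the right; blue is CD109+/+, red CD109-/-, filled circles replicate 1 and open triangles replicate 2. Filled circles lie to the right of open triangles of the same colour for nearly all enzymes, and the 2 panels have different horizontal scales.

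Among the other HIF targets the gaps were wider for some genes and absent in others. Car9, a cell-surface carbonic anhydrase widely used as a marker of hypoxic tumour cells, had levels of 2.45, -1.19, 2.71 and -1.63. CD109+/+ replicate 1 was 12.5-fold above CD109+/+ replicate 2, and CD109-/- replicate 1 was 20.2-fold above CD109-/- replicate 2, whereas the genotype difference was -0.09 ± 1.89. The second Car9 probe gave 0.38, -2.07, 0.84 and -2.54, with the same order of arrays. Car12, a related carbonic anhydrase that did not reach the test, was dim throughout, with measured levels of -4.44, -7.36, -3.45 and -6.27, and was well above background on 1 array of each genotype. Both carbonic anhydrases thus had their higher values on the same 2 arrays, 1 of each genotype.

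Besides Car9, 3 members had gaps above 1 on the log2 scale in both genotypes. Egln3 had gaps of 1.94 and 3.31, Slc16a3 of 1.69 and 1.71, and Ankrd37, an ankyrin repeat gene induced by HIF-1, of 1.74 and 1.18. With Car9 these were 4 of 35 members (11.4%), where 1.65% of all genes passed the same limit, and Slc2a1 lay just short of it with 1.00 and 1.13. Ankrd37 levels were 3.17, 1.43, 1.79 and 0.60, and its genotype difference of -1.10 ± 0.73 was within overlapping genotypes. Ndrg1 had gaps of 1.71 and 0.83, and Ddit4 of 0.68 and 1.28.

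Other members did not share the pattern. Slc2a3 had a gap of 0.91 between the CD109+/+ arrays and -1.31 between the CD109-/- arrays. Pfkfb4, P4ha1 and P4ha2 had gaps from -0.20 to 0.08 in CD109+/+ and from -0.58 to -0.16 in CD109-/- tumours. Kdm3a had 0.50 and -0.27. Hif1a had gaps of 0.45 and 0.37, whereas Epas1 had -0.41 and -0.50, so that the mRNAs of the 2 HIF subunits ran opposite ways on both pairs of arrays. Over the 35 members the CD109+/+ gap and the CD109-/- gap had a Pearson r of 0.80, and over all genes of 0.36. These are correlations across genes of the same 4 libraries, and genes are not independent replicates.

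**Figure D3:**
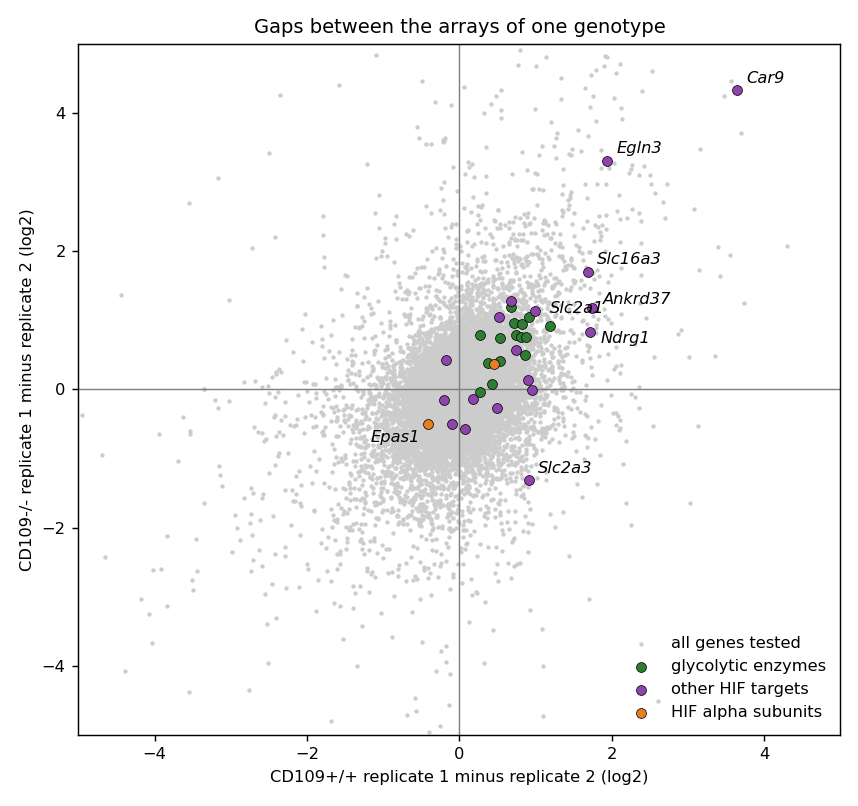
Gap between replicate 1 and replicate 2 (log2) in CD109+/+ tumours on the horizontal and in CD109-/- tumours on the vertical axis, for all genes tested in grey and the members in colour; 52 genes, none of them a member, lie outside the limits of 5 on either axis. Car9 at 3.65 and 4.34 lies farthest from the origin among the members, and 14 of the 15 enzymes lie to the upper right of the origin.

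The promoters of the genes with gaps above 1 in both genotypes are shown because HIF binds the core letters ACGTG or GCGTG, and their start regions let a reader see where these letters fall. The sequences are the 250 bases before the annotated start in RefSeq's table for GRCm38.p6, with either core, read on either strand, in capitals. They cover chr4:43506776-43507025, plus strand for Car9, chr12:54203875-54204124, minus strand for Egln3, chr11:120948817-120949066, plus strand for Slc16a3 and chr8:45999851-46000100, minus strand for Ankrd37. Kdm3a (chr6:71632918-71633167, minus strand), the member with the lowest p between genotypes, is added for comparison.
Car9: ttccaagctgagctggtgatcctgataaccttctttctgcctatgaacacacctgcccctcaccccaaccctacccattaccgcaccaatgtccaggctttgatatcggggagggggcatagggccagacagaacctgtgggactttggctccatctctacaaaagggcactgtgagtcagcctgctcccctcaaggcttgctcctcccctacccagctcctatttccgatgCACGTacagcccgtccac
Egln3: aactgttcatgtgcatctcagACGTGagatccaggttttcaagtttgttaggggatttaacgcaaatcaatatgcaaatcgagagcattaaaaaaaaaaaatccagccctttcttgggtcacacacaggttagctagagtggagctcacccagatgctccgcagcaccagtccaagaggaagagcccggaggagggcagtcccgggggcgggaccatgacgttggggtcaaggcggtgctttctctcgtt
Slc16a3: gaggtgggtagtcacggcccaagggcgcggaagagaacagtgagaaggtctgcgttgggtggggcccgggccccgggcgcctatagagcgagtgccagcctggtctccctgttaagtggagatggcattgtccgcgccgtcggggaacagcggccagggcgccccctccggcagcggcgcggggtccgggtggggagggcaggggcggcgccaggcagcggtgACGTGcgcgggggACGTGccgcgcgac
Ankrd37: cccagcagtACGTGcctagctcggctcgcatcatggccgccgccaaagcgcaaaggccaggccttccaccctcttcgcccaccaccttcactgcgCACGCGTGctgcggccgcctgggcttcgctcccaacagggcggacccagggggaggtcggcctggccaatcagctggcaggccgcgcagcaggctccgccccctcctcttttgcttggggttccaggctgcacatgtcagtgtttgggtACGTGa
Kdm3a: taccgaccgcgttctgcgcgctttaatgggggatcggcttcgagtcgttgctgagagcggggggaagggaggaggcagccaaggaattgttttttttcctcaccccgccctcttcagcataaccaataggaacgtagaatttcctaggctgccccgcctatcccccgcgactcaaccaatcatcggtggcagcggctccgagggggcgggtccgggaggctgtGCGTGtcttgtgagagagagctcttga

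Positions are of the first letter of a match, counted from the start of transcription, with -1 for the base just before it. In Car9 the single match began at -18, and in Slc16a3 the 2 matches began at -27 and -14. Egln3 held a single match, at -229. Ankrd37 held 4 matches, of which the nearest began at -6, and 2 of the others overlap. Kdm3a held a single match, at -27. A promoter was found for 32 of the 36 members, counting 1 start per gene. Of these 26 (81.2%) held ACGTG or GCGTG on either strand, and so did 38.6% of the 27025 promoters of the table. ACGTG alone was in 18 members (56.2%) and in 16.6% of all promoters. Of the enzymes 10 of 15 held either word, and of the other HIF targets 15 of 16. The letters also fall inside the palindrome CACGTG bound by other factors, base composition was not matched, and a match is a description of these letters only.

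The remaining genes of the pathway came from lists chosen for their function, also with earlier results of these data known. Of 9 tested components of the HIF pathway 4 had higher and 5 lower values in CD109-/- tumours. Hif3a, a HIF alpha relative that can restrain the other subunits, had levels of 1.58, 1.06, -0.37 and -1.27. Both CD109-/- arrays were lower, with a difference of -2.14 ± 0.40, limma's unadjusted p = 0.00414 and adjusted p = 0.504. Arnt, the partner of the alpha subunits, differed by -0.08 ± 0.22, Vhl by 0.04 ± 0.22, the hydroxylase Egln2 by -0.29 ± 0.21, the asparaginyl hydroxylase Hif1an by 0.19 ± 0.34 and the coactivator Ep300 by -0.21 ± 0.26.

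Of 28 further HIF targets 13 were higher and 15 lower, with a median of -0.11. In each direction 1 had an unadjusted p under 0.05 in limma, together 7.14% of the list. This share was near the 7.41% of all genes at that level. The lipid droplet gene Plin2 had levels of 3.40, 3.36, 4.34 and 3.98 and a difference of 0.78 ± 0.24 (limma's adjusted p = 0.585). The glycogen synthase gene Gys1 differed by -0.65 ± 0.22 (adjusted p = 0.623) and the zinc finger gene Zfp395 by -0.74 ± 0.29 (adjusted p = 0.671). Vegfa, the angiogenic growth factor, had levels of 3.85, 3.35, 3.20 and 3.42 and a difference of -0.29 ± 0.27. The gaps inside genotypes had medians of 0.40 and 0.34 in this list, and 14 of the 28 genes were higher on replicate 1 in both genotypes.

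Neighbouring routes of carbon metabolism had smaller median gaps. The TCA cycle, which burns acetyl groups in mitochondria, had median gaps of 0.00 and 0.10 over 17 genes, and the log2 of its summed signal was 8.05, 7.96, 8.03 and 8.0. For 12 genes of pyruvate entry into mitochondria the medians were -0.14 and -0.06, and for 7 genes of the pentose phosphate pathway 0.24 and 0.09. For 17 other glycolysis and lactate genes, mostly isoforms of other tissues, they were 0.05 and 0.14. The gaps of the TCA cycle were thus closer to those of all genes than to those of the glycolytic enzymes, a difference that was not tested.

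Between genotypes limma's unadjusted p was under 0.05 in 1 of 12 pyruvate entry genes (8.33%) and 1 of 17 other glycolysis and lactate genes (5.88%). It was under 0.05 in 1 of 4 gluconeogenesis genes and in 0 of the TCA and pentose phosphate genes. Over all genes the share was 7.41%, and lists this short cannot be told from it. Of the pyruvate entry genes 9 of 12 were higher with a median of 0.20, led by the phosphatase gene Pdp1, which activates pyruvate dehydrogenase, at 0.63 ± 0.22 (limma's adjusted p = 0.641). The carrier Mpc1 differed by 0.35 ± 0.21 and Dld by 0.33 ± 0.21. Of the TCA genes 11 of 17 were higher with a median of 0.10, Idh3a at 0.70 ± 0.32, Suclg2 at -0.68 ± 0.33 and Sucla2 at 0.29 ± 0.22. In gluconeogenesis Fbp1, which opposes phosphofructokinase, had levels of -0.79, -0.41, 0.18 and 0.50 and a difference of 0.94 ± 0.26 (adjusted p = 0.565). Pck2 differed by -0.51 ± 0.27 and Fbp2 by -0.74 ± 0.79. The muscle isoform Pgam2 differed by -1.33 ± 0.50 (adjusted p = 0.669), the lactate dehydrogenase subunit Ldhb by -0.82 ± 0.36 and Tigar, which diverts sugar phosphates from glycolysis, by 0.75 ± 0.33. In the pentose phosphate pathway Taldo1 differed by 0.30 ± 0.21, Rpe by 0.28 ± 0.23 and Pgls by -0.21 ± 0.25.

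**Figure D4:**
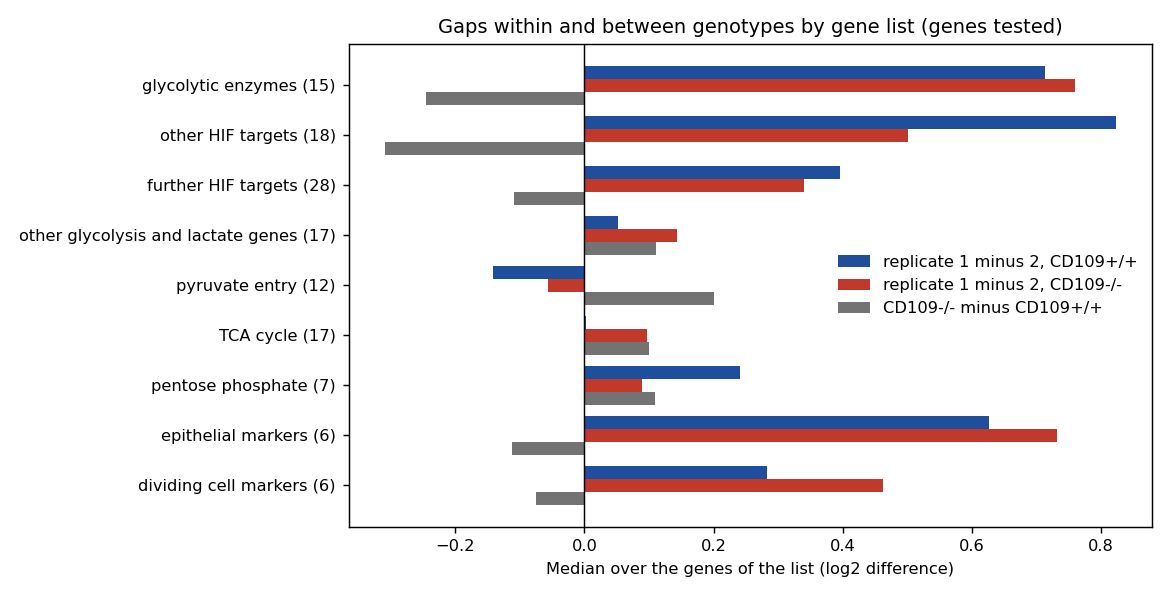
Median over each gene list of the gap between replicate 1 and replicate 2 in CD109+/+ (blue) and CD109-/- tumours (red) and of the difference between genotypes (grey), on the log2 scale, with the number of genes tested in brackets. The median gaps were 0.71 and 0.76 for the glycolytic enzymes, 0.82 and 0.50 for the other HIF targets and 0.63 and 0.73 for epithelial markers. Those of the TCA cycle were 0.00 and 0.10. Of the marker lists only those of epithelium and dividing cells are drawn. Not drawn are, among others, neutrophil (0.80 and 0.30), alveolar type 2 (0.08 and 0.03) and club cell markers (-0.60 and -0.30).

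Markers of several cell types differed between the arrays of a genotype, and their part in the values above was not tested. All 6 epithelial markers were higher on replicate 1 in both genotypes, with median gaps of 0.63 and 0.73 and a log2 summed signal of 9.13 and 8.25 in CD109+/+ and 8.62 and 8.0 in CD109-/- tumours. The order of these sums is that of the glycolytic enzymes, and the sum of no other marker list had it. The bright Krt8 and Krt18 weigh most in these sums. The list median (4.84, 4.10, 4.88 and 3.86) was highest on CD109-/- replicate 1, as were Epcam, Cdh1 and Cldn7. The simple keratin gene Krt19 had levels of 5.28, 4.04, 5.17 and 3.68 and Epcam, an epithelial adhesion gene, 1.90, 1.56, 2.13 and 1.34. All 6 markers of dividing cells were likewise higher on replicate 1 in both genotypes, with a log2 summed signal of 3.84 and 3.55 in CD109+/+ and 3.86 and 3.41 in CD109-/- tumours. The neutrophil markers had median gaps of 0.80 and 0.30, with 4 of 6 higher on replicate 1 in both genotypes. Airway markers ran the other way. The dim ciliated cell markers Foxj1 and Tekt1 were lower on replicate 1 in both genotypes. Their gaps were -2.88 and -2.19 for Foxj1 and -2.28 and -2.29 for Tekt1. Dnah5, well above background on only 1 CD109+/+ array, is left out of these gaps. The 3 club cell markers had median gaps of -0.60 and -0.30. The 7 alveolar type 2 markers had median gaps of 0.08 and 0.03, and a log2 summed signal of 10.47, 10.44, 10.41 and 10.34.

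Several marker lists differed between genotypes, although no marker passed the adjusted threshold in limma, and their part was not tested either. All 8 macrophage markers were higher in CD109-/- tumours (log2 summed signal 4.94 and 4.69 against 5.53 and 5.40), as were all 7 fibroblast markers (5.02 and 4.87 against 5.67 and 5.45) and all 6 tested T and NK cell markers (0.40 and 0.40 against 1.27 and 1.96). These macrophage, fibroblast and T and NK cell markers were well above background on all 4 arrays. Higher values in CD109-/- tumours were also found for all 3 club cell markers (median difference 1.43), all 5 tested erythroid markers (0.65), all 7 endothelial markers (0.24) and 4 of 6 tested neutrophil markers (0.78). The ciliated cell markers Foxj1 and Tekt1 differed by 1.95 ± 1.22 and 0.95 ± 1.09, with overlapping genotypes. Dnah5 was tested only through CD109-/-, the genotype in which it was brighter, and is not counted here. Lower values were found for 5 of 7 alveolar type 2 markers (median difference -0.18), 5 of 6 dividing cell markers (-0.07) and 3 of 4 B cell markers (-0.10). Of the epithelial markers 3 of 6 were lower (-0.11), and 3 of 5 tested striated muscle markers were higher (0.21). The log2 of the summed signal of all tested genes was 16.73, 16.53, 16.65 and 16.58. The brightest sum was again that of CD109+/+ replicate 1, but the spread was smaller than that of the enzymes and the order of the other 3 arrays differed.

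The genotype values of the members rested on which arrays were set against each other. Without CD109+/+ replicate 1 the enzymes with lower values in CD109-/- tumours numbered 6 of 15 (median 0.05), and without CD109-/- replicate 2 also 6 of 15 (median 0.16). Without CD109+/+ replicate 2 they numbered 14 (median -0.59), and without CD109-/- replicate 1, the male, 13 (median -0.58). For the other HIF targets the counts were 9, 9, 16 and 13 of 18 and the medians 0.00, -0.06, -0.82 and -0.71 in the same order of left-out arrays. Car9 went from -0.09 to 1.73, 2.08, -1.91 and -2.26. A lower level of these genes in CD109-/- tumours was thus not separable from the spread between samples of the same genotype.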

How the data were processed

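Lung tumour RNA of 2 CD109+/+ and 2 CD109-/- samples was read on single-colour arrays. The scanner output, per the file headers, was made with Agilent Feature Extraction 12.1.0.3, and the deposited intensity is its processed signal after background subtraction, with well-above-background and outlier flags as other values. The main setting here was log2 of this intensity minus the 75th percentile of each array. Outlier and control spots were left out and spots of a probe averaged. Probes were named by accession through RefSeq's gene table (34566 of 56605 probes, 23787 genes). The brightest probe per gene, among probes well above background on both arrays of a genotype, stood for its gene, leaving 16443 genes.

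All genes were fitted with limma 3.58.1 in R 4.3.3 (lmFit and eBayes, all 4 arrays, genotype as the single term, 2 residual and 2.54 prior degrees of freedom), with Benjamini-Hochberg adjusted p-values over all of them and a threshold of 0.05. The lowest adjusted p was 0.266. The procedure was tested on simulated data. The member genes and gene lists were chosen with earlier results of these data known. Named genes were every member, the 3 genes with the largest absolute moderated t of each other pathway list, and Vegfa, Arnt, Vhl, Egln2, Hif1an, Ldhb and Cd109, with marker genes only where a result turned on them. All arrays were on 1 slide with 1 scan day, so a slide term was not run.

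Alternatives were normexp correction (on median spot and background signals, offset 50), quantile and median scaling, the authors' processed values (linear intensity, with a scaling constant per array whose rule no source here states, column medians 58.8 to 76.1), no filter, a filter on all arrays, the mean of probes, sex as a covariate, replicate number as a block and leaving out each array. The array number limits the precision.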

Additional observations from a re-analysis of the deposited data

How the results depend on the processing

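The count of genes called stayed at 0 under every alternative. The members with an unadjusted p under 0.05 in limma numbered 1 in the main fit, where 7.41% of all genes passed. They numbered 2 after normexp correction, 2 in the authors' processed values, 0 with median scaling and 0 without the filter on dim probes. With the replicate number as a block they numbered 4 (Hk2, Bnip3, Ankrd37 and Egln3). The share of all genes under these alternatives is not given here, so their counts have no background to be read against. The labels tie no numbers across genotypes, and deviations of same-numbered arrays had r = 0.36. Leaving out 1 array gave medians of -0.59 to 0.16 for the enzymes, -0.82 to -0.0026 for the other HIF targets and -0.33 to 0.27 for the further HIF targets. Lower values were then found for 6 to 14 enzymes and 9 to 16 other HIF targets. With sex as a covariate, which equals leaving out the male, the other HIF targets had a median of -0.71. The median gaps in CD109+/+ enzymes were 0.58 (normexp), 0.49 (quantile), 0.80 (median scaling) and 0.43 (authors' values), in CD109-/- enzymes 0.71 (quantile), 0.90 (median scaling) and 0.68 (authors' values), and in CD109+/+ other HIF targets 0.54 (authors' values). The median gap of all genes moved too, from 0.04 and -0.03 to -0.24 and -0.10 (authors' values) and 0.13 and 0.11 (median scaling). These alternatives of the gaps and of the counts of lower members were chosen after seeing the data. Causes were not tested.

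Signs turned for Pgk1 (-0.016 with normexp, -0.013 in the authors' values, -0.46 with sex), Pgam1 (0.016 with median scaling), and with sex for Hk1 (-0.37), Slc2a3 (0.48), Pfkfb4 (0.20) and Hif1a (-0.075). Leaving out 1 array, differences spanned 0 in Car9 (-2.26 to 2.08), Egln3 (-3.18 to 0.13), Fbp2 (-1.87 to 0.38), Ndrg1 (-1.65 to 0.054), Slc16a3 (-1.27 to 0.43), Slc2a1 (-1.10 to 0.032), Pfkp (-1.03 to 0.16), Slc2a3 (-0.83 to 0.48), Gapdh (-0.81 to 0.055), Ero1l (-0.75 to 0.29), Ddit4 (-0.75 to 0.54), Pkm (-0.66 to 0.39), Eno1 (-0.63 to 0.24), Ldha (-0.62 to 0.13), Pgam1 (-0.62 to 0.57), Pgk1 (-0.46 to 0.48), Egln1 (-0.41 to 0.022), Hk1 (-0.37 to 0.58), Pfkfb4 (-0.31 to 0.20), Arnt (-0.20 to 0.028), Pfkfb3 (-0.20 to 0.76), Hif1an (-0.16 to 0.53), P4ha2 (-0.14 to 0.44), Hif1a (-0.12 to 0.34), Vhl (-0.076 to 0.15) and Pfkm (-0.072 to 0.35).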

Other observations

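All genes were ranked by the smaller of their gaps between replicate 1 and replicate 2 in the 2 genotypes, over the 15646 well above background on all 4 arrays. The genes named here that are no members were chosen after their values were seen. Car9 ranked 2 and Tff1, a gene of gastric mucus cells, ranked 1, with log2 levels of 5.60 and 1.90 in CD109+/+ replicates 1 and 2 and 5.92 and 2.21 in CD109-/- replicates 1 and 2. Anxa10, also known from gastric epithelium, ranked 4 (2.73, -0.76, 4.44 and -2.64), and Pdx1, a transcription factor of pancreas and foregut, ranked 11 (-2.46, -4.99, -0.26 and -4.87). The mesothelin gene Msln, which many adenocarcinomas express, ranked 13 (6.05, 3.35, 5.46 and 2.98), and the transcription factor gene Sox2 ranked 22 (0.20, -2.02, 0.46 and -2.68). Ak4, a mitochondrial adenylate kinase, ranked 16 (1.53, -0.85, 0.51 and -1.93). Among the members Egln3 ranked 37, Slc16a3 66, Ankrd37 161 and Slc2a1 243. The members were spread over the whole ranking, with Gapdh at 816, Kdm3a at 9374, Epas1 at 12016 and Slc2a3 at 15027.

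Among the further HIF targets, the lipase inhibitor gene Angptl4 had levels of 4.38, 2.61, 4.75 and 3.14 and Hilpda, a lipid droplet gene, 2.25, 1.17, 2.30 and 0.87, both higher on replicate 1 of each genotype. The stanniocalcin gene Stc2 had levels of -1.43, -2.20, -0.32 and -5.01. No test was run on these values.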
